A study of Mus musculus with 2 samples.

Results

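Potassium channel subunit genes were examined by RNA-seq of the P12 optic nerve, with 1 control library and 1 library of *Tcf7l2*ΔHMG mutants. The members were all gene symbols that begin with Kcn, go on with small letters and end in a number, and 92 of the 23951 symbols found in both libraries matched. By gene family, 40 encode voltage-gated (Kv) subunits, 11 Kv accessory subunits, 15 inwardly rectifying (Kir) subunits and 14 tandem-pore (K2P) subunits. A further 12 belong to the calcium-activated families, a class that by gene name also holds the sodium-activated *Kcnt1* and *Kcnt2* and the pH-gated *Kcnu1*. Control mice had the genotype Tcf7l2 c/+; OLig1-cre and mutant mice Tcf7l2 c/c; OLig1-cre, so both groups carried the Cre driver and at least 1 floxed allele, and recombination of the floxed exon, which encodes the DNA-binding HMG box, was limited to cells that had expressed *Olig1*. The number of animals behind each library is not given. With 1 library per genotype there was no spread between animals, no p-value was computed, and each difference below compares these libraries.

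Potassium channels set the resting potential of neurons and glia and end the action potential. In white matter, Kv1 channels made from the *Kcna* genes cluster along myelinated axons beside the node of Ranvier, and Kir4.1, encoded by *Kcnj10*, is carried by astrocytes and OLs, where it takes up the potassium that firing axons release. K2P channels give a background leak, calcium-activated channels couple calcium entry to hyperpolarization, and accessory subunits alter the trafficking and gating of the pore-forming ones. The cell bodies of the axons in the optic nerve lie in the retina and not in the nerve.

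The values are FPKM, fragment numbers scaled to transcript length and library depth, which may be compared between genes, each with the confidence interval that Cufflinks gave it. This interval covers sampling within a library and not variation between animals. Depth was read from the interval bounds as 27624000 (control) and 39938000 (mutant) fragments, at which 3 fragments on 1 kb correspond to 0.109 and 0.0751 FPKM. A gene was compared where it reached 1 FPKM in at least 1 library and neither row was marked by Cufflinks as failed or short of data, and 0.1 was added to both FPKM values before the log2 ratio of mutant over control was taken, which understates the change of low genes. It was called higher or lower past a fold change of 1.5. Over all 14199 genes compared, the median log2 ratio was 0.05, 15.4% were higher in the mutant and 8.52% were lower. *Tcf7l2* itself was measured at 17.8 FPKM (interval 16.7 to 18.9) in control and 14.6 FPKM (13.9 to 15.4) in mutant nerves, which does not check the genotype, since the deletion removes 1 exon and the value covers the whole gene. Myelinating OL markers were lower in the mutant for 11 of 11 comparable rows, and their summed level was 26492 FPKM against 15944 FPKM in the mutant. In bulk tissue, fewer cells of a type and less RNA per cell cannot be told apart.

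The promoters of the members that fell are shown first, since the study deals with a DNA-binding factor. RefSeq promoter windows (GRCm38.p6, from 250 bases before the start site to 50 after) were matched by symbol for 67 of the 92 members, among them *Kcna2*, *Kcnj12* and *Kcnk13*, and of the members that fell only *Kcna1* had none. Both strands were searched for CTTTGAT, a core of the TCF/LEF site, and for its first 6 letters, CTTTGA, of which every CTTTGAT is also a match. The longer word occurred in 3 of the 67 members (4.48%, *Kcne4*, *Kcnj16* and *Kcnk2*) and in 4.29% of all 27025 genes with a window, and in none of the 14 matched members past the 1.5-fold cutoff. The shorter word, chosen after the promoters were seen, occurred in 7 of the 67 members (10.4%) and in 18.2% of all genes. It lay in the windows of *Kcna2* and *Kcnj12*, not in that of *Kcnk13*, and in that of 1 of 11 matched members that rose (*Kcnk4*). The 250 bases before each start site are given below for the plus strand, 5′ to 3′, with the letters that match CTTTGA on the other strand in capitals. A match is a string of letters and was not tested for binding.
*Kcna2* (chr3:107101317-107101566, plus strand): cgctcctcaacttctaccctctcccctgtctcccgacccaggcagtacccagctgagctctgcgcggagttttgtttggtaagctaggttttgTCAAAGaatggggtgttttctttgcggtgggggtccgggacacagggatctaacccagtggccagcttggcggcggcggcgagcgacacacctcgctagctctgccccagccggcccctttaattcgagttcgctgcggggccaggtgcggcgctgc
*Kcnj12* (chr11:61065554-61065803, plus strand): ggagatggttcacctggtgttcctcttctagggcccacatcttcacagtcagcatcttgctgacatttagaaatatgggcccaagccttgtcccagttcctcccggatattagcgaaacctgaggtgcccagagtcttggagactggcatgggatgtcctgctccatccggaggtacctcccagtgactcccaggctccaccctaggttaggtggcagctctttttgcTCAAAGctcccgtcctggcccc
*Kcnk13* (chr12:99964249-99964498, plus strand): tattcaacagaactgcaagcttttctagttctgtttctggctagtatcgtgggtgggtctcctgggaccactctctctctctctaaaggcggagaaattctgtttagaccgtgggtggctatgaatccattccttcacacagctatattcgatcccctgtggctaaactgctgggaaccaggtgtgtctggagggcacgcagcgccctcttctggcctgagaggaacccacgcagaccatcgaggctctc

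Of the 92 members, 44 reached 1 FPKM in at least 1 library, and the plot of levels by class draws 40 of these. Among them 16 (36.4%) were higher in the mutant past 1.5-fold, against 15.4% of all genes compared, and 4 (9.09%) were lower, against 8.52%. The share of members that fell was thus near the background, and the share that rose was above it. The filter bears on the rises, because 6 of the 16 were below 1 FPKM in the control and entered through the mutant library alone (*Kcnc1*, *Kcnh2*, *Kcnip4*, *Kcnab3*, *Kcnk4* and *Kcnma1*), and a gene that enters in this way has to differ. Of the 38 members at 1 FPKM or more in both libraries, 10 were higher and 4 lower, against 12.2% and 7.22% of all such genes. Past 2-fold, 6 members were higher and 1 lower, against 6.87% and 3.68% of all genes compared. The median log2 ratio of the 44 was 0.39, against 0.05 for all genes, and 34 of the 44 lay above 0, against 54.6% of all genes. These directions hold for FPKM as deposited. After centring on the median of all genes, 14 members were higher and 4 lower (all genes 1965 and 1389). Scaling named rows to the same 75th percentile gave 16 and 4 (all genes 2235 and 1188). Rescaling named rows to an equal sum gave 15 and 4 (all genes 1906 and 1518). The outcome was different when all rows were rescaled. Rows without a gene name held 70.7% (control) and 80.7% (mutant) of all FPKM, and bringing both libraries to an equal sum over all rows moved the median of all genes to −0.61 and that of the members to −0.26, with 4 members higher and 10 lower. The median of the members still lay above that of all genes by 0.34, as it did in FPKM as deposited. Of all 14199 genes compared, 640 were higher and 7398 lower after this rescaling. Of the 16 rises, *Kcnip2*, *Kcnj13*, *Kcnk4* and *Kcnt2* then stayed past the cutoff, and the falls gained *Kcna6*, *Kcnd2*, *Kcnip3*, *Kcnj10*, *Kcnk1* and *Kcnn1*. With 1 FPKM required in both libraries, the median of the members was 0.29 and that of all genes 0.04.

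**Figure D1:**
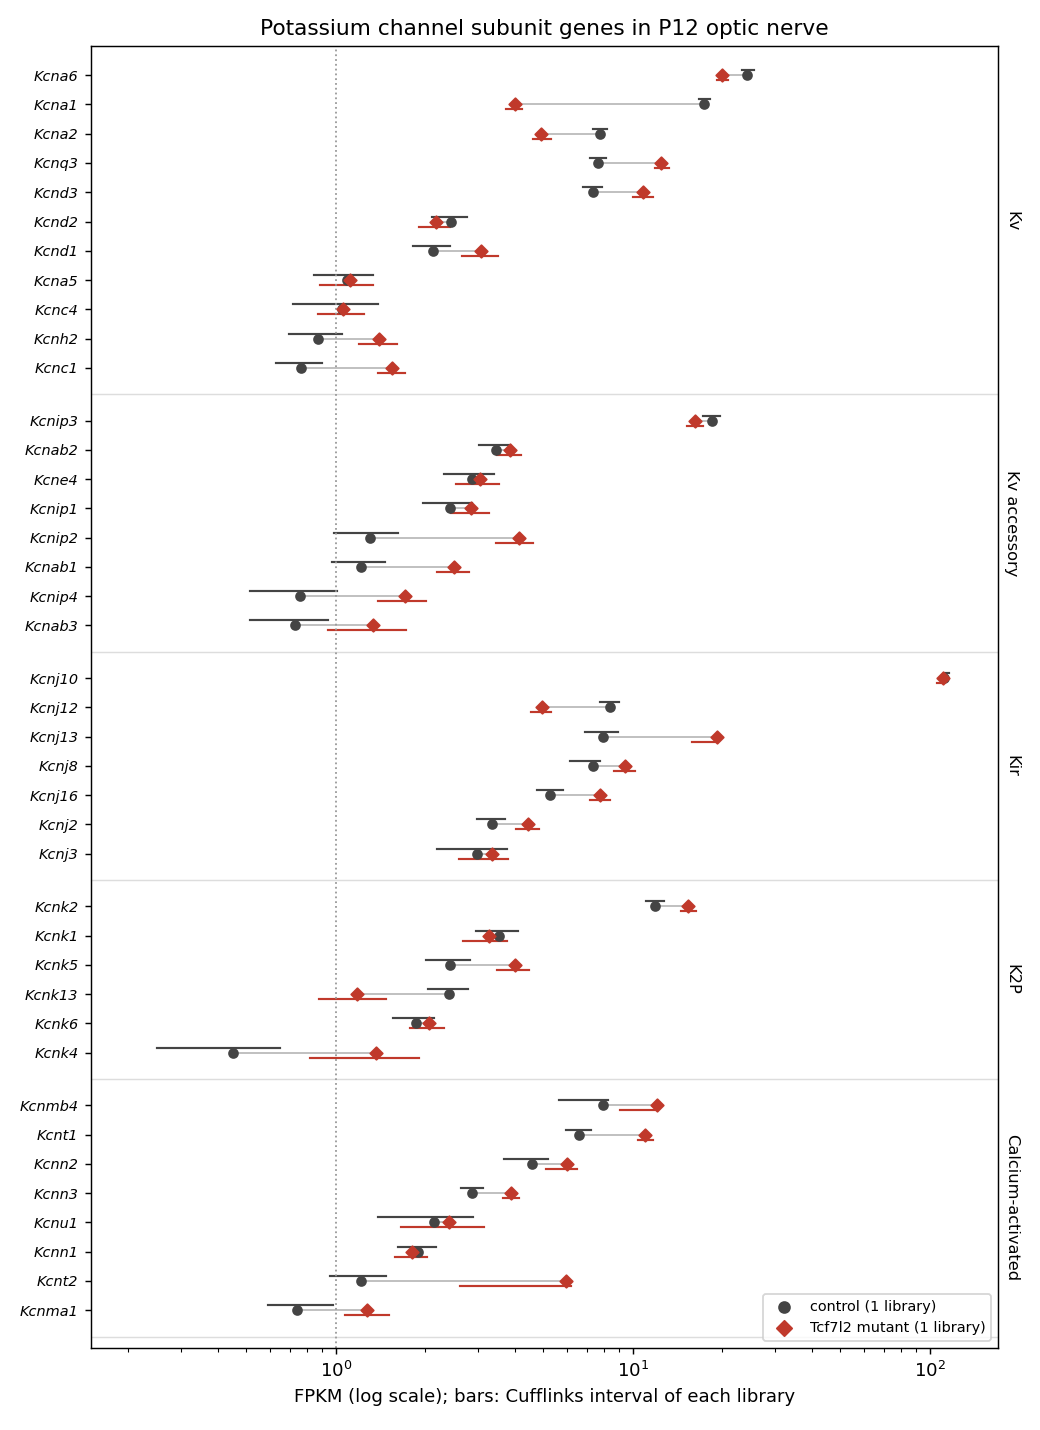
FPKM of 40 of the 44 potassium channel members compared (log axis), by class, in the control library (grey circles) and the *Tcf7l2*ΔHMG library (red diamonds), with the Cufflinks interval of each as a bar and 1 FPKM as a dotted line. *Kcnj10* stands far to the right at 112 and 111 FPKM, and *Kcna1* shows the longest move to the left, from 17.4 to 4.0 FPKM.

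Levels were led by the Kir class, which held 46.2% (control) and 45.2% (mutant) of the FPKM of all members. *Kcnj10* alone, on chromosome 1 from 174271341 to 174304216 in mm9 as the files give it, accounted for 34.6% and 30.8%. The next level was that of *Kcna6*, at 24.3 and 19.9 FPKM, and no other member came near *Kcnj10* in either library. In the control, *Kcnip3* and *Kcna1* followed at 18.4 and 17.4 FPKM with overlapping intervals, then *Kcnk2* at 11.9. The 8 members from *Kcnj12* (8.38 FPKM) down to *Kcnt1* (6.59 FPKM) each overlapped the next in level. In the mutant, *Kcna1* dropped from rank 4 to rank 22 of the 92, and *Kcnj13* moved up to rank 3 at 19.3 FPKM. The Kv class changed its makeup, with the Kv1 genes at 51.5 FPKM (control) and 31.1 FPKM (mutant), and the remaining Kv genes at 37.5 and 55.1 FPKM. The calcium-activated class was at 28.6 and 45.0 FPKM in sum, while the Kv sum was 89.1 and 86.2 FPKM. All these sums are of FPKM as deposited and were not computed after rescaling all rows.

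**Figure D2:**
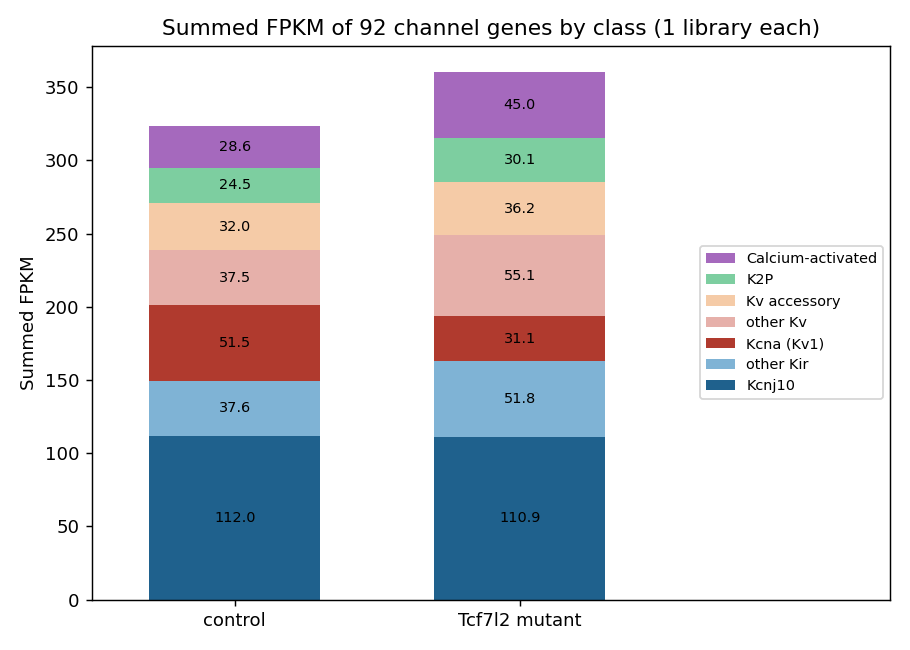
Summed FPKM of the 92 potassium channel members in each library, split into *Kcnj10*, the other Kir genes, the *Kcna* (Kv1) genes, the other Kv genes, Kv accessory, K2P and calcium-activated genes. All segments are FPKM as deposited, and the sums were not computed after rescaling all rows. The *Kcnj10* segment is of like size in both bars. The Kv1 segment is smaller in the mutant (51.5 and 31.1 FPKM) and the calcium-activated segment larger (28.6 and 45.0 FPKM).

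Of the pore-forming Kv1 genes, *Kcna1* (Kv1.1) fell most of all members. The gene spans chromosome 6 from 126586481 to 126595819, and was measured at 17.4 FPKM (interval 16.7 to 18.3) in control and 4.0 FPKM (3.74 to 4.25) in mutant nerves, a fold change of 4.27 (log2 ratio −2.10), and the intervals lay far apart. Only 1.56% of all genes compared had a lower ratio. *Kcna2* (Kv1.2), its partner in axonal channels, was at 7.74 FPKM (interval 7.33 to 8.16) in control and 4.9 FPKM (4.62 to 5.3) in mutant nerves, a fall of 1.57-fold. *Kcna6* (Kv1.6), the highest of the Kv genes, was at 24.3 FPKM (interval 23.4 to 25.6) in control and 19.9 FPKM (19.3 to 20.9) in mutant nerves, a log2 ratio of −0.28 that did not reach the cutoff although the intervals were apart. *Kcna5* was near 1 FPKM in both libraries (1.09 and 1.11 FPKM), and *Kcna3*, *Kcna4*, *Kcna7* and *Kcna10* stayed below 1 FPKM. The median of the 4 Kv1 genes compared was −0.47, and −1.12 after rescaling all rows. The order of *Kcna1* and *Kcna2* turned, *Kcna1* being 2.25 times the level of *Kcna2* in the control and 0.817 times in the mutant. *Kcna5*, *Kcna1* and *Kcna6* follow each other on chromosome 6, with 100907 and 62527 bases between them in the files, and of these only the middle gene passed the cutoff. *Kcna3*, *Kcna2* and *Kcna10* lie together on chromosome 3 in the same way, but both neighbours of *Kcna2* were too low to be compared.

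The row of *Kcna1* carried an assembly identifier in the control and the reference name in the mutant, over the same 9339 bases, so the transcripts counted may differ between the libraries. The part of this in the fall was not tested. The myelin markers that moved with it had log2 ratios from −2.04 for *Mobp* to −0.36 for *Aspa*, and 7 of 11 fell past 1.5-fold. Of the 7 neuron markers compared, 3 were higher past the cutoff and none lower, among the 4 inside it *Nefl* at 13 and 15.4 FPKM and *Nefm* at 5.46 and 4.2 FPKM. The part of either cell type in the fall of *Kcna1* was not tested.

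Among the other Kv genes the direction was mostly upward, with 5 of 11 higher past 1.5-fold, none lower, and a median log2 ratio of 0.56 that turned to −0.10 (none higher, 1 lower) after rescaling all rows. Of all 14199 genes compared, 15.4% were higher and 8.52% lower in FPKM as deposited. Their rescaled median was −0.61, with 640 higher and 7398 lower. *Kcnq3* encodes a subunit of the M-type channels that damp repetitive firing. It was at 7.64 FPKM (interval 7.15 to 8.14) in control and 12.5 FPKM (11.9 to 13.2) in mutant nerves, a rise of 1.63-fold, and *Kcnq5* stayed below 1 FPKM. The A-type genes *Kcnd3* (log2 ratio 0.56, 7.31 and 10.8 FPKM) and *Kcnd1* (0.52, 2.12 and 3.09 FPKM) remained just inside the cutoff, with intervals apart, while *Kcnd2* was at 2.44 and 2.17 FPKM with overlapping intervals. The fast Kv3 gene *Kcnc1* went from 0.763 to 1.55 FPKM and the ERG gene *Kcnh2* from 0.874 to 1.4 FPKM, both from below 1 FPKM in the control. The rows of both carried the reference name in the control and an assembly identifier in the mutant. *Kcnc4* (log2 ratio 0.01) did not pass. The 10 silent subunits of the *Kcnf*, *Kcng*, *Kcns* and *Kcnv* families, which form no channel alone, were all below 1 FPKM in both libraries.

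The Kv accessory genes ranged from no difference to the second largest rise of all members. Of 8 compared, 4 were higher and none lower, with a median log2 ratio of 0.51 (−0.12 after rescaling all rows). Among all genes compared, 15.4% were higher and 8.52% lower, and the rescaled median was −0.61. *Kcnip4* and *Kcnab3*, 2 of the 4 rises, were below 1 FPKM in the control and entered through the mutant library alone. *Kcnip3*, which encodes the calcium-binding protein KChIP3, also called DREAM, was by far the highest at 18.4 FPKM (interval 17.2 to 19.7) in control and 16.2 FPKM (15.2 to 17.2) in mutant nerves and did not pass the cutoff. *Kcnip2* (KChIP2), a partner of the Kv4 channels, was at 1.3 FPKM (interval 0.988 to 1.62) in control and 4.15 FPKM (3.47 to 4.61) in mutant nerves, a rise of 3.02-fold that only 3.04% of all genes exceeded. Its row carried the reference name in the control and an assembly identifier in the mutant. *Kcnip4* went from 0.76 to 1.71 FPKM (log2 ratio 1.07), whereas *Kcnip1*, whose row overlaps that of *Kcnmb1*, was at 2.42 and 2.86 FPKM. The Kvβ gene *Kcnab1* was at 1.22 FPKM (interval 0.969 to 1.47) in control and 2.5 FPKM (2.19 to 2.81) in mutant nerves, a rise of 1.97-fold, and *Kcnab3* at 0.729 FPKM (interval 0.514 to 0.942) in control and 1.34 FPKM (0.94 to 1.72) in mutant nerves, the only member past the cutoff whose intervals overlapped. *Kcnab2*, the Kvβ gene with the highest level, was at 3.45 and 3.85 FPKM, inside the cutoff. Of the single-pass KCNE subunits, *Kcne4* was at 2.87 and 3.06 FPKM, and *Kcne1*, *Kcne2* and *Kcne3* stayed below 1 FPKM.

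The Kir class held 1 fall, 1 rise and 5 genes inside the cutoff, with a median log2 ratio of 0.35 (−0.31 after rescaling all rows). Over all genes compared, 15.4% were higher and 8.52% lower. *Kcnj10* was at 112 FPKM (interval 111 to 116) in control and 111 FPKM (106 to 109) in mutant nerves, a log2 ratio of −0.01 that became −0.68, past the cutoff, after rescaling all rows. That value lay near the median of all genes compared, −0.61 after the same rescaling, when 7398 of 14199 genes were lower. The row of *Kcnj10* carried an assembly identifier in the control and the reference name in the mutant. The intervals did not overlap, but the mutant value lay above its own interval, so the Cufflinks error does not describe this row well. *Kcnj16* (Kir5.1), which joins Kir4.1 in a mixed channel, was at 5.27 FPKM (interval 4.75 to 5.8) in control and 7.78 FPKM (7.2 to 8.36) in mutant nerves, a log2 ratio of 0.55 just inside the cutoff. The ratio of *Kcnj10* to *Kcnj16* was 21.2 in the control and 14.3 in the mutant. *Kcnj12* (Kir2.2), on chromosome 11 from 60836066 to 60886769, was at 8.38 FPKM (interval 7.77 to 9.01) in control and 4.93 FPKM (4.55 to 5.32) in mutant nerves, a fall of 1.68-fold, while its relative *Kcnj2* (Kir2.1) was at 3.34 and 4.43 FPKM with a log2 ratio of 0.40. *Kcnj8* (Kir6.1), the pore of the vascular ATP-sensitive channel, was at 7.35 and 9.39 FPKM, and *Abcc9*, which encodes its sulphonylurea receptor, at 4.95 and 3.88 FPKM, both inside the cutoff. *Kcnj3* was at 2.98 and 3.34 FPKM with overlapping intervals.

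*Kcnj13* (Kir7.1), on chromosome 1 from 89282126 to 89291304 in the control file, had the only rise of the class. It was measured at 7.91 FPKM (interval 6.9 to 8.93) in control and 19.3 FPKM (15.8 to 18.9) in mutant nerves, a fold change of 2.42, and here too the mutant value lay above its interval. The row lies within that of *Gigyf2*, which was at 12.1 and 13.2 FPKM, so reads of the pair may not be told apart where they overlap. Kir7.1 is best known from the retinal pigment epithelium and the choroid plexus, and markers of these, listed after the value of *Kcnj13* had been seen, were mostly low. Of 5 pigment epithelium markers, *Rpe65*, *Rgr* and *Lrat* were below 0.1 FPKM in both libraries, *Rlbp1* was at 10.6 and 13.7 FPKM and *Best1* at 0.482 and 1.84 FPKM. Of 5 choroid plexus markers, *Ttr* was at 0.107 and 1.82 FPKM, *Kl* at 2.57 and 4.92 FPKM, *Folr1* at 0.131 and 0.374 FPKM, *Aqp1* at 1.74 and 1.52 FPKM and *Otx2* below 0.1 FPKM. Meningeal fibroblast markers were higher in the mutant in 8 of 8 genes, 4 of them past 1.5-fold (none after rescaling all rows), with summed levels of 1826 and 2789.9 FPKM. That rescaling left 640 of all 14199 genes compared higher. The part of any of these tissues in the difference of *Kcnj13* was not tested.

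Of the K2P genes, *Kcnk2* (TREK-1), a mechanically gated leak channel, was the highest at 11.9 FPKM (interval 11 to 12.8) in control and 15.4 FPKM (14.6 to 16.3) in mutant nerves, inside the cutoff with a log2 ratio of 0.37. *Kcnk13* (THIK-1), known as the resting leak of microglia, was at 2.41 FPKM (interval 2.04 to 2.78) in control and 1.17 FPKM (0.88 to 1.48) in mutant nerves, a fall of 1.97-fold and the second largest of all members. Of 8 microglial markers none passed the cutoff, with summed levels of 242 and 319 FPKM and a median log2 ratio of 0.24, which turned to −0.42 (none higher, 2 lower) after rescaling all rows. All 14199 genes compared then had a median of −0.61, with 640 higher and 7398 lower. The part of the microglial markers in the fall of *Kcnk13* was not tested. The rows of *Kcnk13* differed in kind, the control row carrying the reference name and the mutant row an assembly identifier. *Kcnk5* (TASK-2) was at 2.42 FPKM (interval 2.01 to 2.82) in control and 4.02 FPKM (3.5 to 4.46) in mutant nerves, a rise of 1.64-fold, and *Kcnk4* (TRAAK), a channel of axonal nodes, went from 0.449 (interval 0.25 to 0.648) to 1.36 FPKM (0.82 to 1.91). *Kcnk1* and *Kcnk6* differed little, with overlapping intervals. The median of the 6 K2P genes was 0.25 (−0.39 after rescaling all rows).

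The calcium-activated class had 4 rises and no fall among 8 genes, with a median log2 ratio of 0.51 (−0.14 after rescaling all rows). Over all genes compared, 15.4% were higher and 8.52% lower, and the rescaled median was −0.61. Of the 4 rises, that of *Kcnma1* entered through the mutant library alone. The largest rise of all members was that of *Kcnt2* (Slick), a sodium-activated channel on chromosome 1 from 142142834 to 142506838. It was measured at 1.22 FPKM (interval 0.959 to 1.48) in control and 5.94 FPKM (2.62 to 6.18) in mutant nerves, a fold change of 4.58 that 2.01% of all genes exceeded. The mutant interval of *Kcnt2* is wide, and its value lies near the upper bound, so the size of the rise is poorly fixed. *Kcnt1* (Slack), the second sodium-activated gene, was at 6.59 FPKM (interval 5.95 to 7.24) in control and 10.9 FPKM (10.4 to 11.7) in mutant nerves, a rise of 1.65-fold. Both *Kcnt* genes therefore rose, and *Kcnt1* went from 5.41 to 1.84 times the level of *Kcnt2*.

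Of the genes of the large-conductance BK channel, the pore gene *Kcnma1* went from 0.741 to 1.28 FPKM. *Kcnmb4*, its neuronal β subunit, was at 7.91 FPKM (interval 5.66 to 8.25) in control and 12 FPKM (9.02 to 11.9) in mutant nerves, a log2 ratio of 0.60 at the edge of the cutoff, with the mutant value above its interval. The row of *Kcnmb4* contains the antisense row *Kcnmb4os1*, which was at 5.08 and 5.32 FPKM, and since the strand of the libraries is not given, reads of the pair cannot be told apart. The small-conductance SK genes did not pass. *Kcnn2* was at 4.58 and 6.0 FPKM (log2 ratio 0.38), *Kcnn3* at 2.88 and 3.9 FPKM (0.42) and *Kcnn1* at 1.89 and 1.81 FPKM (−0.06). *Kcnu1*, known from sperm, was listed at 2.15 and 2.4 FPKM with overlapping intervals.

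**Figure D3:**
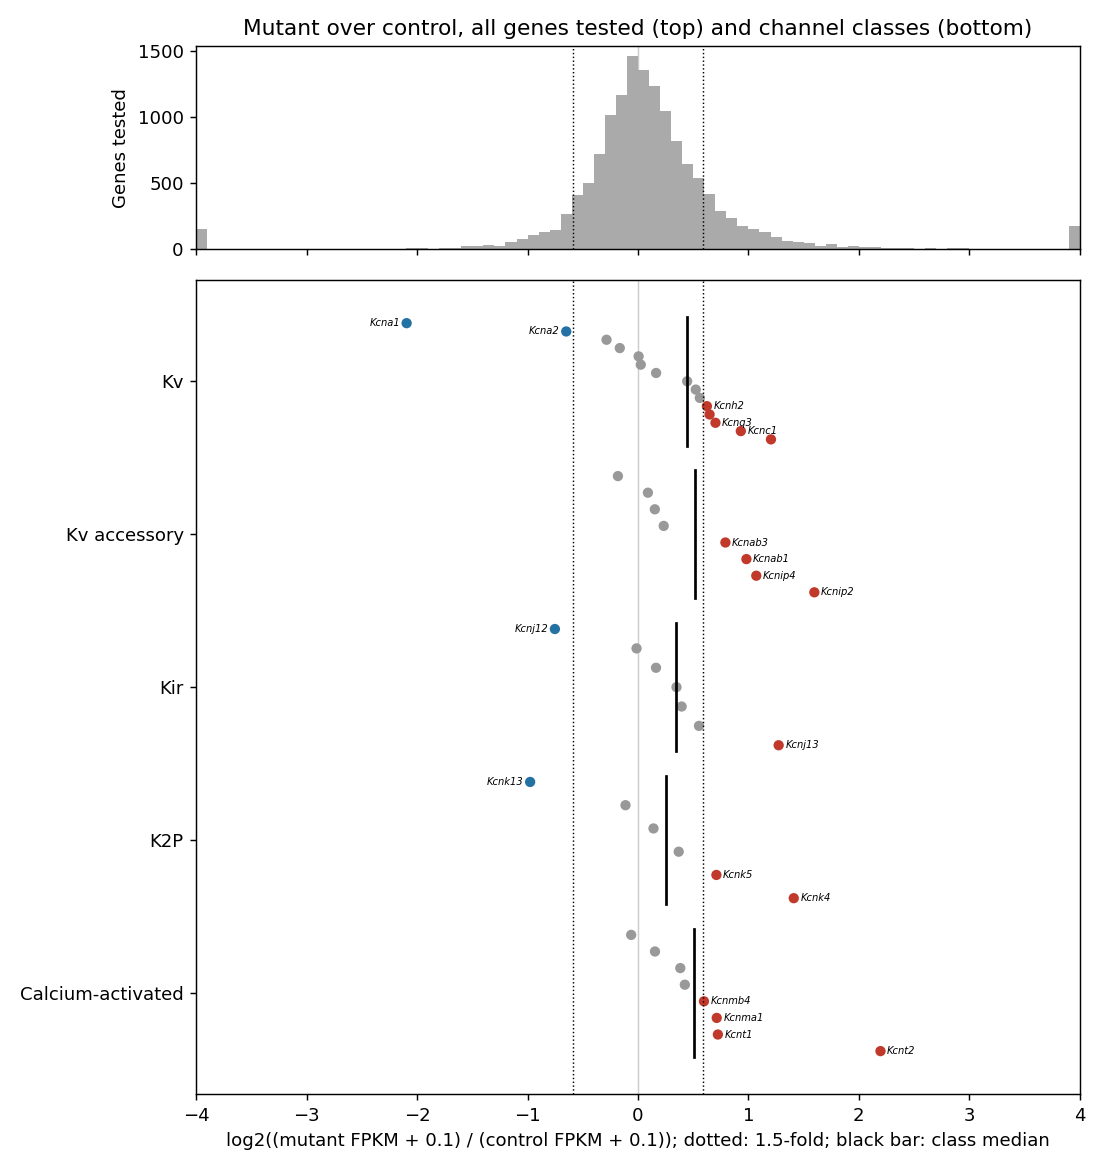
Log2 ratio of mutant to control FPKM, as a histogram over the 14199 genes compared (top, with genes beyond 4 in either direction in the end bins) and for each channel member by class (bottom, red for higher and blue for lower past 1.5-fold, grey inside it, black bars for class medians, names beside most of the members past the cutoff). Every class median lies to the right of 0, between 0.25 and 0.51, and all of them fall below 0 once all rows are rescaled to a common sum, while the 4 falls are 2 Kv1 genes, *Kcnj12* and *Kcnk13*. After that rescaling the median of all genes compared lies at −0.61.

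Set side by side, the classes had median log2 ratios of 0.45 for Kv, 0.51 for Kv accessory, 0.35 for Kir, 0.25 for K2P and 0.51 for calcium-activated genes, all of them negative after all rows were rescaled. That rescaling put the median of all genes compared at −0.61. With 1 FPKM required in both libraries the class medians were 0.16, 0.19, 0.35, 0.14 and 0.42, so that the Kv and Kv accessory medians lay below that of Kir and the order of the classes changed. Each class rests on 6 to 15 genes, the ranges overlap widely, and the classes were not tested against each other. Of the members at 1 FPKM or more in both libraries, 3 of 13 Kv, 2 of 6 Kv accessory, 1 of 7 Kir, 1 of 5 K2P and 3 of 7 calcium-activated genes were higher, against 12.2% of all such genes. Of the 20 members past the cutoff, 19 had intervals that did not overlap, 15 of them higher and 4 lower, against 13.6% and 7.42% of all genes compared that passed both criteria. Without the fold criterion, such intervals were found in 52.4% of all genes compared. Row names differed in kind between the libraries for 15 of the 44 members (34.1%) and for 8 of the 20 past the cutoff (40%), against 23.5% of all genes compared and 25.2% of those past the cutoff. Among the 8 were *Kcna1*, *Kcnk13*, *Kcnip2*, *Kcnc1*, *Kcnh2*, *Kcnab3* and *Kcnmb4*. Among the 29 members with rows of the same kind, 10 were higher and 2 lower (*Kcna2* and *Kcnj12*). Over all genes compared, with rows of any kind, 15.4% were higher and 8.52% lower. The shares over all genes with rows of the same kind were not computed.

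The remaining 48 members stayed below 1 FPKM in both libraries, with a highest value of 0.954 FPKM for *Kcna3* in the mutant. They comprised 25 Kv, 3 Kv accessory, 8 Kir, 8 K2P and 4 calcium-activated genes. Of the 42 that differed, 31 (73.8%) had the higher FPKM in the mutant. Over all genes not compared, 4837 differed, and 63.3% of these had the higher FPKM in the mutant. The genes not compared also include those left out for their Cufflinks status at any level. The mutant library was 1.45 times as deep. *Kcnh3*, *Kcnq1*, *Kcnj1*, *Kcnk15*, *Kcnk18* and *Kcnmb3* were listed at 0 in both libraries, and *Kcng3*, *Kcnv2* and *Kcnk16* in the control only. *Kcnq1* shares its locus with the non-coding *Kcnq1ot1*, at 0.71 and 0.70 FPKM. *Kcnk9* (TASK-3), under the limit in both, was at 0.288 FPKM (interval 0.12 to 0.449) in control and 0.886 FPKM (0.692 to 1.08) in mutant nerves.

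Genes that move potassium by other means were taken as lists. Of the pumps and cotransporters, 13 rows could be compared, of which 5 rose and 1 fell, against 15.4% and 8.52% of all genes compared. After rescaling all rows, 3 of the 13 were higher and 5 lower. With that rescaling, 640 of all 14199 genes compared were higher and 7398 lower. *Fxyd1*, a pump regulator, was at 379 and 866 FPKM, the neuronal potassium-chloride cotransporter *Slc12a5* at 0.703 and 1.94 FPKM and *Slc12a7* at 7.67 and 21.9 FPKM. *Slc12a5* was below 1 FPKM in the control and entered through the mutant library alone. The fall was that of *Slc12a2* (NKCC1), at 65.3 and 35 FPKM, a log2 ratio of −0.90. *Atp1b2*, with 425 and 516 FPKM among the highest of the list, did not pass. *Fxyd5* and *Fxyd7* were merged into a single row in the mutant only and were left out.

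Partners that hold Kv1 channels at the juxtaparanode did not pass the cutoff in any of 8 genes found (5 were lower after rescaling all rows), with *Cntnap2* at 2.21 and 2.05 FPKM, *Cntn2* at 1.42 and 1.14 FPKM and *Adam22* at 11.2 and 8.92 FPKM. The rescaling made 7398 of all 14199 genes compared lower. The highest of the partners were *Lgi3* (122 and 84.9 FPKM), *Dlg1* (41.2 and 32.1 FPKM) and *Dlg4* (15.1 and 22.4 FPKM). Among accessory subunits with other names, 1 of 6 passed, *Lrrc38*, a BK γ subunit, at 0.716 and 1.13 FPKM, and the highest were *Lrrc55* (9.995 and 10.8 FPKM), *Dpp6* (4.22 and 5.32 FPKM) and *Abcc9*. Of the HCN channels, which carry potassium and sodium, *Hcn2* was at 8.71 and 7.46 FPKM and *Hcn3* passed at 0.769 and 1.25 FPKM, while *Hcn4* was below 1 FPKM. *Lrrc38* and *Hcn3* were below 1 FPKM in the control and entered through the mutant library alone.

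The cell type markers moved unequally beside these genes, as the plot of marker lists shows. Rescaling all rows took the list medians from 0.40 to −0.26 (astrocyte), 0.34 to −0.33 (neuron), 0.58 to −0.087 (meningeal), 1.23 to 0.56 (erythroid), −0.27 to −0.93 (OPC) and −0.83 to −1.50 (myelinating OL). It took the median of all genes compared from 0.05 to −0.61. The directions that follow are for FPKM as deposited. Astrocyte markers, which share *Kcnj10* with OLs, were above 0 in 9 of 10 genes and past 1.5-fold in 2, with summed levels of 5202 and 6189.7 FPKM, and *Aqp4* was at 182 and 148 FPKM. OPC markers were below 0 in 6 of 8 genes, 2 of them past the cutoff, with sums of 638 and 522 FPKM. Neuron markers were above 0 in 6 of 7 genes compared and past 1.5-fold in 3, *Snap25* (5.92 and 10.3 FPKM), *Syt1* (1.07 and 3.64 FPKM) and *Rbfox3* (0.658 and 1.51 FPKM), with sums of 53.9 and 68.4 FPKM. *Rbfox3* was below 1 FPKM in the control and entered through the mutant library alone. The other 4 compared stayed inside the cutoff, among them *Nefm* with the lower value in the mutant. Of the 8 listed, the 1 too low to be compared was also lower in the mutant. The part of the neuron markers in the rises of *Kcnip2* and *Kcnt2* was not tested. Endothelial markers gave 1 rise and 1 fall of 8, and pericyte and smooth muscle markers 2 of each, among them *Tagln*, which was listed at 0 in the control. Erythroid rows were higher past the cutoff in 4 of 4, with sums of 163 and 403 FPKM. Of 5 Schwann cell markers 2 were compared, of which none was higher and 1 was lower. Of 5 skeletal muscle markers 2 were compared, *Acta1* (10.5 and 12.4 FPKM) inside the cutoff and *Tnnt3* (2.76 and 4.28 FPKM) higher.

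**Figure D4:**
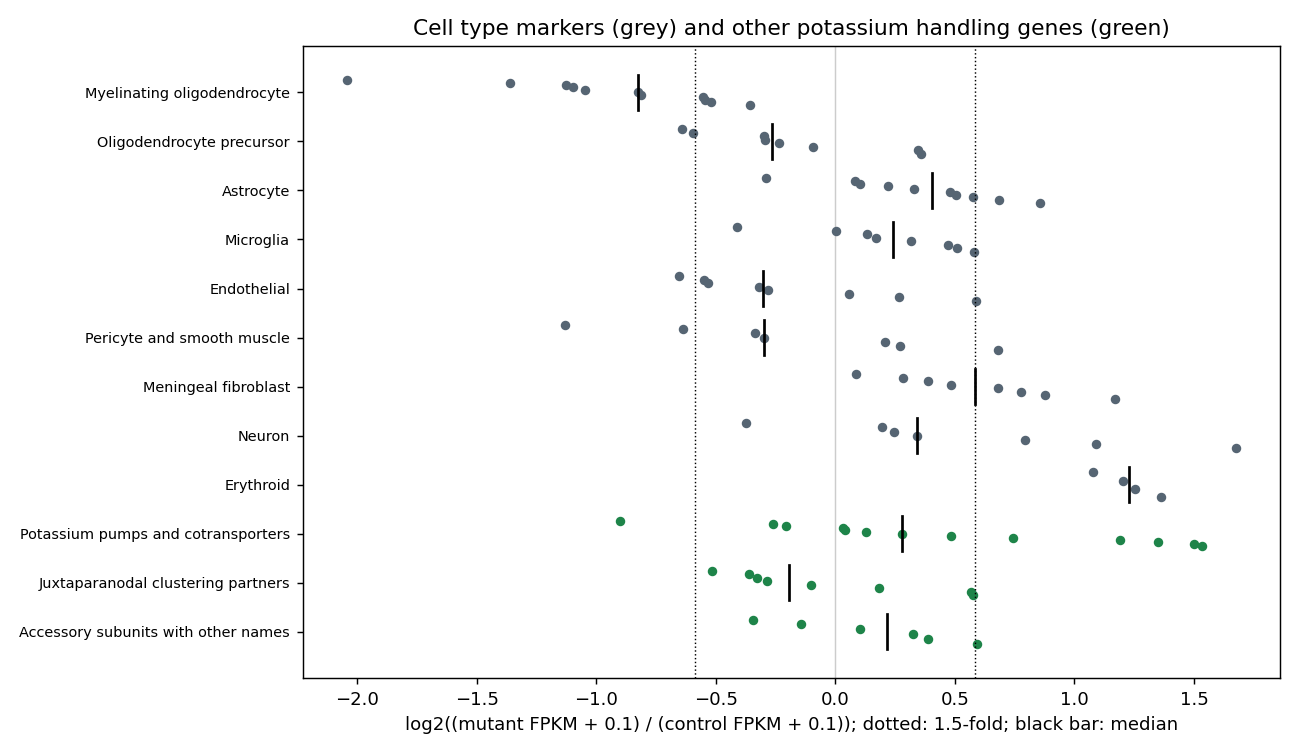
Log2 ratio of mutant to control FPKM for the genes of 9 cell type lists (grey) and 3 lists of other potassium handling genes (green), with the median of the genes drawn as a black bar and 1.5-fold as dotted lines. Genes under 1 FPKM in both libraries, rows merged in a single library and *Tagln*, listed at 0 in the control, are not drawn. Myelinating OL markers lie wholly to the left of 0, and meningeal fibroblast and erythroid markers to the right of it, the meningeal median turning to −0.087 after all rows are rescaled.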

How the data were processed

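RNA-seq of the P12 optic nerve gave 1 control library and 1 *Tcf7l2*ΔHMG library. Reads were mapped by the authors with TopHat under its default settings, and Cufflinks gave the deposited FPKM and the bounds of its confidence interval, and mm9 is the build in the submitters' processing notes. Versions and the strand of the libraries are not given in the sources used here. Rows that named several genes were split and their FPKM was given to each symbol, and rows with the same symbol were summed. No member was in a merged row. In the marker and pathway lists, a row merged in both libraries was counted once, and one merged in a single library was left out.

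The depth was the smallest number of fragments at which the interval bounds of unnamed rows under 100 bases, up to 100 fragments, were whole multiples of 1 fragment. They lay within 0.0015 of a whole number for 364 bounds in the control and within 0.0012 for 677 in the mutant. Among named rows above 0, the FPKM lay outside its own interval in 7.26% (control) and 8.64% (mutant) of cases. The calculation of the ratio and the cutoff was checked on simulated data with planted changes far larger than the cutoff. The simulation held no variation between animals, so it does not show how reliable calls near the cutoff are. Every member at 1 FPKM or more in at least 1 library could be named, and the other members were given by count unless a short list called for names. Of the other lists, genes past the cutoff and the 3 highest were named. *Kcnk9*, *Cntnap2*, *Cntn2*, *Adam22*, the single marker genes and the melanocyte, retinal pigment epithelium and choroid plexus lists were chosen after values were seen. Values of 4 members and of some list genes are not reported here. The members and all lists were chosen with earlier results of these data known. The alternatives were other pseudocounts, filters, scalings, rows and cutoffs. Scripts ran under Python 3.11.15 with matplotlib 3.10.9, scipy 1.17.1, pandas 2.3.3 and numpy 2.4.6.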

Additional observations from a re-analysis of the deposited data

How the results depend on the processing

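The 16 rises and 4 falls among potassium channel genes were recounted under each alternative. Counts over all genes compared stand in brackets. The number of rises was 9 with a pseudocount of 1 (1672 of 14199) and 27 of 92 without a filter (3207 of 23853). It was 10 of 38 with 1 FPKM required in both libraries (1608 of 13195), and 5 of 17 with 5 FPKM required in at least 1 (1290 of 10535). A fold change above 2 left 6 (975 of 14199), and rescaling all rows to a sum of 1000000 left 4 (640 of 14199). The number of rises stayed between 14 and 16 with scaling to the 75th percentile, centring of the ratios on the median, rescaling of named rows, a pseudocount of 0.01, the highest row per symbol, merged rows left out, rows of any status and intervals that did not overlap. Under these settings 1906 to 2237 of all genes compared were higher. The number of falls was 1, *Kcna1*, with a fold change above 2 (522 of 14199) and 10 after all rows were rescaled (7398 of 14199). It lay between 3 and 6 under the other planned settings (889 to 1644 genes). Restricting the members to rows of the same kind in both libraries, an alternative chosen after seeing the data, left 29 members with 10 rises and 2 falls. All genes were not restricted in this way, so these counts have no matching background. Rescaling all rows turned the median log2 ratio of the members from 0.39 to −0.26, and those of the classes to −0.21 for Kv, −0.12 for Kv accessory, −0.31 for Kir, −0.39 for K2P and −0.14 for calcium-activated genes. The same rescaling took the median of all genes compared from 0.05 to −0.61. Among single genes past the cutoff, only *Kcnmb4* changed sign there, to −0.067. With 5 FPKM required in at least 1 library, the Kv accessory median was −0.18, since *Kcnip3* alone was left in that class. The control library, with 27624000 fragments against 39938000, limits what can be said of low genes. No paired analysis was possible because each genotype has 1 library and no test was run.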

Other observations

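Some rows whose names begin with Kcn lie outside the 92 members, because their names go on after the number or have none. *Kcne1l*, an X-linked gene of the KCNE family also called *Kcne5*, was at 12.6 FPKM (interval 10.01 to 12.8) in control and 18.7 FPKM (15.2 to 18.2) in mutant nerves, above all 4 *Kcne* members in both libraries. Its log2 ratio was 0.56, inside the 1.5-fold cutoff, the intervals did not overlap, and the mutant value lay above its interval. The long non-coding *Kcnq1ot1* was at 0.71 and 0.70 FPKM, *Kcnrg* at 0.386 and 0.487 FPKM, and *Kcnd3os*, whose row overlaps that of *Kcnd3*, was listed at 0 in both libraries. Of 5 melanocyte markers, listed after the value of *Kcnj13* had been seen, *Dct* was at 0.965 and 2.16 FPKM and *Tyr* at 2.29 and 2.42 FPKM, and *Pmel* was listed at 0 in both libraries.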
